A study of Saccharomyces cerevisiae with 3 samples.

Results

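The 9 genes described here are the hexose transporter genes HXT1 to HXT7 and the glucose sensor genes SNF3 and RGT2 of Saccharomyces cerevisiae, chosen by symbol in the array's annotation. They make up 9 of 5539 genes measured, with 2 adjacent spots each, 18 of 13056 spots in all. Each of 3 two-colour arrays set total RNA of a strain that the labels call a YAP1 mutant and the series title a deletion mutant of yap1, directly against total RNA of the wild type, both stressed with 1.0 mM arsenite, As(III), for 1 h. Per the labels, Cy5 marked mutant RNA and Cy3 marked wild-type RNA on every array, so dye and genotype cannot be told apart. The labels used here give neither the strain background nor a culture without arsenite. They also do not say whether the 3 replicates were separate cultures, so p-values and intervals cover no more than array-to-array spread, part or all of which may be technical.

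Hxt proteins are membrane carriers that let glucose and other hexoses enter the cell down their gradient. Yeast swaps carriers of low and high affinity as glucose rises and falls. Snf3 and Rgt2 resemble transporters but act as sensors: when glucose binds, the corepressors Mth1 and Std1 are destroyed and the repressor Rgt1 leaves the HXT promoters, while the repressor Mig1 holds down the high-affinity carriers in high glucose until the kinase Snf1, active when glucose is low, removes that repression. Hexose carriers of yeast have also been described as a route by which arsenite enters cells that lack glucose. Yap1 is a transcription factor that switches on antioxidant and detoxification genes.

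None of the 9 genes differed between the mutant and the wild type by the test. The means over the 3 arrays ran from -0.15 for SNF3 to 0.36 for HXT1, as log2 of mutant over wild type after correction for signal brightness, and every 95% interval included 0. The lowest adjusted p among the 9 was 0.312, for HXT4 (limma's moderated test, Benjamini-Hochberg adjustment over 5539 genes), and 0 of the 9 had an unadjusted p under 0.05. Over all genes, 86 (1.55%) were lower and 16 (0.289%) higher in the mutant at an adjusted p under 0.05, so a group of 9 genes with no call is near the background. On the linear scale the highest upper bound of any 95% interval was 1.76-fold, for HXT1, and the lowest lower bound 0.736-fold, for SNF3. An unadjusted p under 0.05 was reached by 11.4% of all genes in the lower and 7.1% in the higher direction. Mutant over wild type is the likely direction of the ratio, from the dyes, the wording of the titles and the YAP1 ratio itself; the table does not state it.

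Of the facts that touch every value, YAP1 itself was lower on all 3 arrays, at -0.33, -1.23 and -1.07, but its mean of -0.88 ± 0.18 (SE) missed the threshold (limma, adjusted p = 0.067). It did pass under 8 alternatives, among them print-block medians (-1.07, limma, adjusted p = 0.0116). The 8 include median centring and the fit without array 3, in each of which all genes checked had the same SE. They also include the deposited scale, where 75.7% of all genes passed as lower. The other 8 genes of a list of YAP1 and its known targets all fell, led by OYE3, an NADPH dehydrogenase gene, at -4.16, the drug exporter gene FLR1 at -3.38, the methylglyoxal reductase gene GRE2 at -3.19 and the thioredoxin reductase gene TRR1 at -2.30. With quantile normalization between arrays the calls over all genes were 235 lower and 97 higher, and on the deposited scale 4191 and 1. The arrays correlated across genes with r of 0.533 to 0.669 in pairs; genes are not independent replicates. Array 1 was the most variable, with a SD over all genes of 0.553 against 0.304 and 0.358. Of 6 genes of the a mating type, 5 of the alpha mating type and 4 of sporulation, 0 were called, with medians of 0.13, 0.29 and -0.00.

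**Figure D1:**
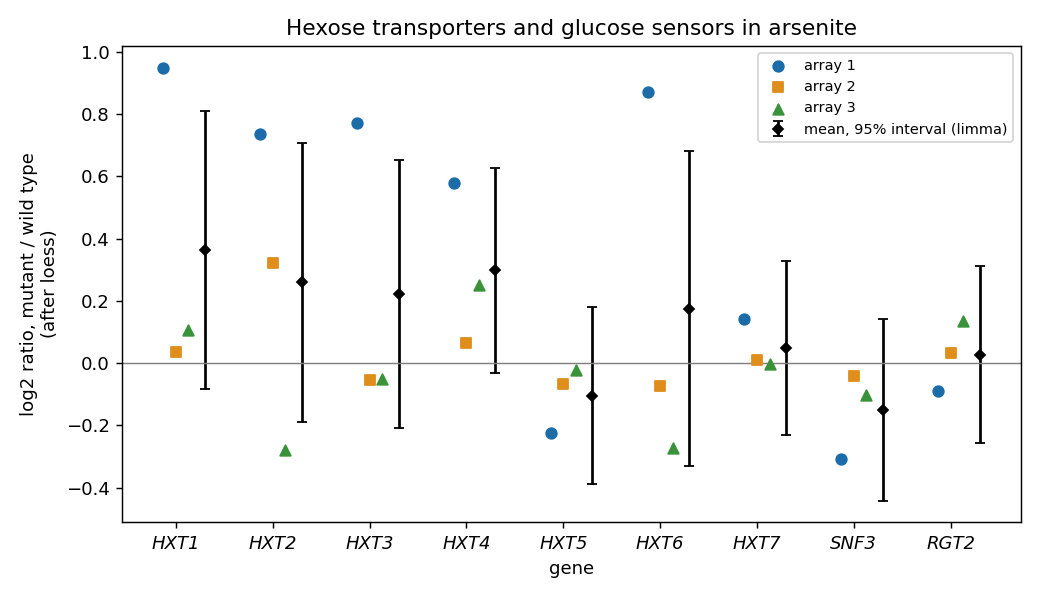
Log2 ratio of mutant over wild type for each of the 9 genes (vertical axis, no unit) on each of the 3 arrays, after loess correction, with the mean and its 95% interval from limma's fit as a diamond and bar. HXT1, HXT2, HXT3, HXT4 and HXT6 lie between 0.58 and 0.95 on array 1 and closer to 0 on arrays 2 and 3, and every interval crosses 0.

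The low-affinity carriers, which work when glucose is plentiful, are HXT1 and HXT3. HXT1 had log2 ratios of 0.95, 0.04 and 0.11 on arrays 1, 2 and 3, with a mean of 0.36 ± 0.19 (SE, n = 3; limma, adjusted p = 0.361). It was higher on all 3 arrays, but nearly all of the mean came from array 1. HXT3 had 0.77, -0.05 and -0.05, averaging 0.22 ± 0.18 (limma, adjusted p = 0.553). Array 1 again stood alone, and without it the mean of HXT3 was -0.05 and that of HXT1 0.07.

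HXT2 and HXT4 encode carriers of higher affinity that are made when glucose is low. HXT2 had ratios of 0.74, 0.32 and -0.28, a mean of 0.26 ± 0.19 (limma, adjusted p = 0.506). Its sign differed between the arrays. HXT4 had 0.58, 0.07 and 0.25, a mean of 0.30 ± 0.14 (limma, adjusted p = 0.312). HXT4 was higher on all 3 arrays and had the smallest unadjusted p of the 9 genes, 0.0690, and without array 1 its mean was 0.16.

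HXT6 and HXT7 encode nearly identical high-affinity carriers and lie next to each other in the genome, so the spots of each may have read the transcripts of both. HXT6 had ratios of 0.87, -0.07 and -0.27, the widest spread of the 9 genes, averaging 0.18 ± 0.22 (limma, adjusted p = 0.700). HXT7 had 0.14, 0.01 and -0.00, a mean of 0.05 ± 0.12 (limma, adjusted p = 0.842). On arrays 2 and 3 the ratio of HXT6 was lower than that of HXT7 by 0.08 and 0.27, and on array 1 it was higher by 0.73. The gap on array 1 exceeded every gap between the 2 spots of 1 gene among the 9, the largest of which was 0.21. Those 2 spots are adjacent, whereas HXT6 and HXT7 lay in different inferred print blocks, so these gaps are not like for like. Part of the gap arose in the brightness correction. On array 1 the deposited ratios were 0.04 for HXT6 and -0.32 for HXT7, and the curves subtracted were -0.83 and -0.46. With the medians of their print blocks subtracted, the differences between HXT6 and HXT7 were 0.31, 0.16 and -0.10.

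HXT5 encodes a carrier of moderate affinity that is made in slowly growing and starved cells, and it was the only carrier gene with a mean below 0. Its ratios were -0.23, -0.07 and -0.02, below 0 on all 3 arrays, and the mean was -0.10 ± 0.12 (limma, adjusted p = 0.677). Its 95% interval on the linear scale ran from 0.764-fold to 1.13-fold. HXT5 and HXT1 are neighbouring genes and their spots lay in the same inferred print block, yet on array 1 HXT1 stood at 0.95 and HXT5 at -0.23. On arrays 2 and 3 the gap between these neighbours was much smaller, with 0.04 against -0.07 and 0.11 against -0.02.

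By the recovered signal averaged over the arrays, the sensor genes were the dimmest of the 9. SNF3, whose product senses low glucose, had -0.31, -0.04 and -0.10, a mean of -0.15 ± 0.12 (limma, adjusted p = 0.553). It was lower on all 3 arrays, with the largest deviation again on array 1. RGT2, whose product senses high glucose, had -0.09, 0.03 and 0.14, a mean of 0.03 ± 0.12 (limma, adjusted p = 0.920), with both signs among the arrays. This mean signal stood at percentile 12.7 of all genes for SNF3 and 19.2 for RGT2, against 42.3 (HXT2) to 86.1 (HXT1) for the carriers. It is brightness on the array, not a transcript level. The percentile of HXT1 rests on array 1, where its first spot gave 7504 (mutant) and 7710 (wild type). On array 2 that spot gave 688 and 1160, below the array medians of 876 and 1611. How the authors handled background is not given in the sources used here, so ratios of dim spots may understate a difference.

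Ordered by the mean ratio, the genes ran HXT1, HXT4, HXT2, HXT3, HXT6, HXT7, RGT2, HXT5 and SNF3. The 95% intervals of all neighbours in this order overlapped, and the upper bound of SNF3, at the bottom, was 0.14 against a lower bound of -0.08 for HXT1, at the top. Overlap of intervals is not a test of a difference, and differences between members within the arrays were not tested. The order is therefore a description only. The median of the 9 means was 0.18, against -0.01 over all genes, and without array 1 it was 0.00 against 0.00.

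The ratios of these genes differed from array to array and were most extreme on array 1, which also had the widest spread over all genes (SD 0.553). On array 1, 6 of the 7 carrier genes were above 0, where 44.7% of all genes were, and 4 of the 9 members exceeded the 90th percentile of all genes on that array, 0.67. Among these 4, HXT3 and HXT6 lay in the same inferred print block. On array 2, 4 of 7 carrier genes were above 0 and 1 of the 9 members, HXT2, exceeded the 90th percentile. On array 3, 2 of 7 carrier genes were above 0 and 0 of the 9 members lay outside the 10th to 90th percentiles, -0.41 to 0.29. The largest ratio of any member was 0.95 on array 1, 0.32 on array 2 and 0.25 on array 3.

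Position on the array moved with several of these values. The order of the deposited values falls into 48 blocks of 272 spots, taken here as print blocks, and on array 1 the block medians ran from -0.38 to 0.73, against -0.29 to 0.28 on array 2 and -0.25 to 0.24 on array 3. The spots of HXT3 and HXT6 lay in the block with the highest median on array 1, 0.73, close to their own ratios of 0.77 and 0.87. HXT2 lay in a block with a median of 0.42 and HXT7 in one with 0.31. With block medians subtracted, array 1 gave 0.04 for HXT3, 0.14 for HXT6, 0.31 for HXT2 and -0.17 for HXT7. HXT1 and HXT4 did not follow their blocks: their block medians were -0.11 and -0.22, and after subtraction they stood at 1.06 and 0.80 on array 1. No member passed after this step (lowest adjusted p = 0.276, limma), where 2.55% of all genes were lower and 0.397% higher.

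**Figure D2:**
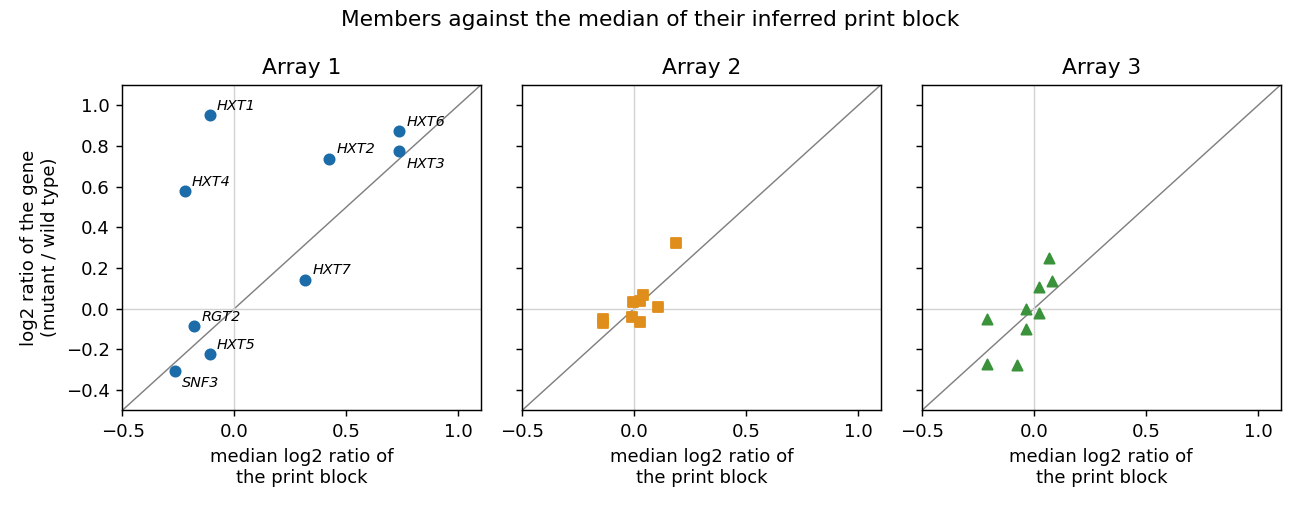
Log2 ratio of each of the 9 genes (vertical axis) against the median log2 ratio of the inferred print block that holds its spots (horizontal axis), 1 panel per array, with the line of equality in grey. On array 1 HXT3 and HXT6 lie near the line at a block median of 0.73, whereas HXT1 (0.95) and HXT4 (0.58) lie far above it, and on arrays 2 and 3 all genes lie between -0.28 and 0.32.

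The corrected ratio of HXT1 is its deposited ratio less the brightness curve, and why array 1 stood out was not tested. The deposited ratios of HXT1 were -0.04, -0.70 and -0.35, each above the median of its array (-0.52, -0.85 and -0.55). The brightness curve subtracted from the ratios of HXT1 was -0.99, -0.74 and -0.46. On array 1 the recovered signals of its first spot were 7504 for the mutant and 7710 for the wild type, and 7675 and 7920 for the second. On array 2 the first spot gave 688 and 1160, and on array 3 it gave 679 and 861. Both channels of HXT1 were thus brighter on array 1 than on the other 2 arrays, although the median mutant signal of array 1, 584, was below those of arrays 2 and 3 (876 and 705). The whole-number ratios fix signals only up to a common factor. For the first spot on array 1 the smallest signals that give its deposited ratio are 3752 and 3855, still above those recovered on the other arrays.

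On the deposited scale the carriers other than HXT5 were also less negative on array 1 than on arrays 2 and 3. The array medians over all spots were -0.52, -0.85 and -0.55, so part of the contrast with array 2 was shared by all genes. The deposited ratios of HXT6 were 0.04, -1.13 and -0.92, and those of HXT3 -0.07, -1.11 and -0.86, close together on all 3 arrays. Both genes lay in the same inferred print block. After the brightness correction and with block medians subtracted, HXT6 stood at 0.14, 0.07 and -0.06 and HXT3 at 0.04, 0.09 and 0.16. HXT7 had -0.32, -1.05 and -0.70, and HXT4 -0.03, -0.71 and -0.33. HXT5 had -1.07, -1.03 and -0.97, similar as deposited but not relative to the medians of the arrays. On the deposited scale, where the median over all genes was -0.66, 6 of the 9 members (HXT3, HXT5, HXT6, HXT7, SNF3 and RGT2) passed as lower, where 75.7% of all genes did and 0.0181% passed as higher. Relative to that median HXT5 was lowest, at -0.37, and HXT1 (0.29), HXT2 (0.25) and HXT4 (0.30) were highest.

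**Figure D3:**
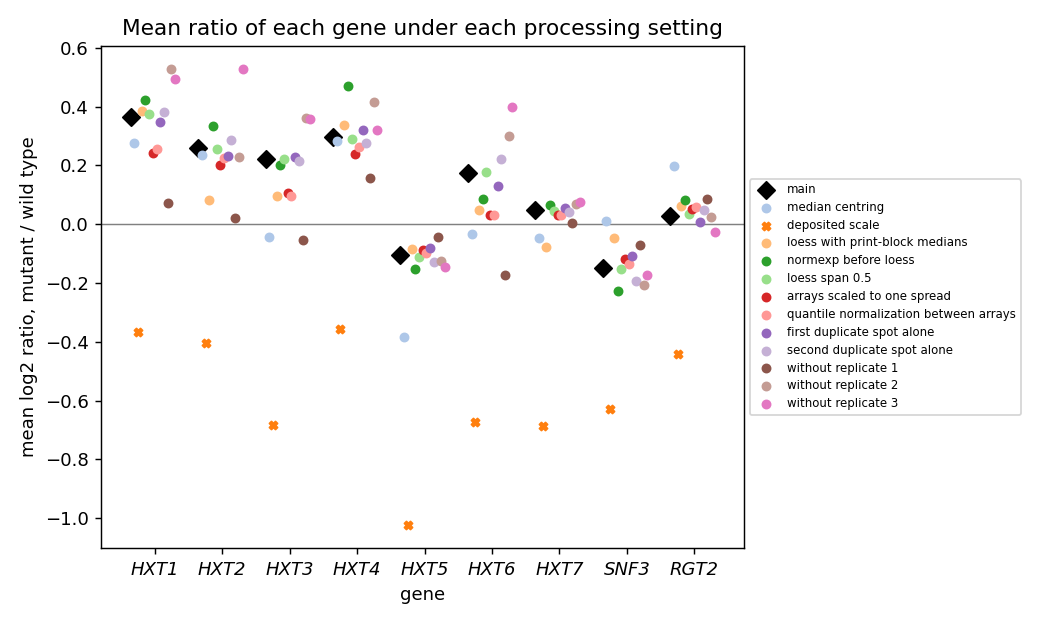
Mean log2 ratio over the arrays (vertical axis) of each of the 9 genes under the reported processing (black diamond) and under 12 other settings; in 3 of these an array is left out and the mean is over 2 arrays. The deposited scale (crosses) lies below 0 for all 9 genes, HXT1, HXT2 and HXT4 stay above 0 in every other setting, and HXT5 stays below 0 in all of them.

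Among the lists of related genes that follow, only CDC34 passed the test. Over all genes, 1.55% were lower and 0.289% higher. Lists of 4 to 20 genes with 0 or 1 call are therefore near the background. Among 11 other genes of the hexose transporter family (HXT8 to HXT17 and the galactose permease gene GAL2), 0 were called, with a median of 0.03 and a range of -0.26 to 0.25. HXT8 had 0.32, 0.18 and 0.24, and its mean of 0.25 ± 0.12 missed the threshold (limma, adjusted p = 0.323), and HXT17 had 0.18 (adjusted p = 0.459). Among 10 other sugar and polyol transporter genes 0 were called and the median was -0.01; VPS73 (-0.46, adjusted p = 0.246) and VVS1 (-0.28, adjusted p = 0.314) had the smallest p, both by limma. VPS73 had -0.14, -0.23 and -1.0, and without array 3 its mean was -0.18; VVS1 had -0.50, -0.09 and -0.25, and -0.17 without array 1. With median centring in place of loess both passed, at -0.66 and -0.54. In that setting limma gave each gene checked the same SE, 0.167, so a gene's own spread did not enter.

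Of 11 genes of the pathway from the sensors to the repressor Rgt1, 1 fell and 0 rose. Over all genes, 1.55% were lower and 0.289% higher. The median of the list was -0.19 against -0.01 over all genes, and 3 of the 11 means lay above 0. The highest was that of the corepressor gene STD1, at 0.41 ± 0.12 (limma, adjusted p = 0.155), which was not called. STD1 had 0.26, 0.48 and 0.49 on arrays 1, 2 and 3. The list's medians on the single arrays were -0.45, -0.06 and -0.08, so array 1 again stood apart. The gene that fell was CDC34, which encodes the ubiquitin-conjugating enzyme that works with SCF ubiquitin ligases, the Grr1 form of which acts in this pathway. Its ratios were -0.62, -0.85 and -0.70, close together on all 3 arrays, and the mean was -0.72 ± 0.12 (limma, adjusted p = 0.0301). Cdc34 serves other SCF ligases as well. The call was lost without array 2 (limma, adjusted p = 0.177), without array 3 (0.0504) and with arrays scaled to 1 spread (0.0562). It was also lost with the unmoderated statistic (0.456) and at a threshold of 0.01. Without array 3 limma gave each gene checked the same SE, 0.234, so the spread of CDC34 itself did not enter.

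Of 20 genes of the Snf1 and Mig1 glucose repression pathway 0 were called, and the median was 0.03. SNF1, the kinase gene, had -0.34 ± 0.14 (limma, adjusted p = 0.241) and TOS3, which encodes a kinase that activates Snf1, had 0.37 ± 0.16 (adjusted p = 0.268). TOS3 stood at 0.75, 0.07 and 0.29 on the 3 arrays, and at 0.18 without array 1. SNF1 passed with median centring (-0.49), where its own spread did not enter. Of 14 genes of glucose sensing through cAMP 0 were called, with a median of -0.02; the GTPase gene RAS1 had 0.26 and the protein kinase A gene TPK2 -0.28, or 0.05 and -0.17 with print-block medians. The 4 genes of hexose phosphorylation had means of 0.02 to 0.25 and 0 calls, among them HXK1 (0.25, adjusted p = 0.522, limma) and EMI2 (0.13, adjusted p = 0.604). HXK1 had 0.48, 0.60 and -0.33, and its mean ran from 0.075 without array 2 to 0.54 without array 3. EMI2 had -0.00, 0.11 and 0.29, and 0.054 without array 3.

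Genes that glucose represses gave 0 calls among 13, with a median of 0.04. ADH2, the glucose-repressed alcohol dehydrogenase gene, had 0.65, 0.59 and 0.57, near-equal on the 3 arrays, and its mean of 0.60 ± 0.12 fell just short (limma, adjusted p = 0.0545). It passed with a loess span of 0.5 (0.62), with arrays scaled to 1 spread (0.64), with quantile normalization (0.64) and without the dimmest 10% of genes (0.60), but its mean was 0.08 with median centring (adjusted p = 0.753, limma), 0.35 with print-block medians (adjusted p = 0.202) and -0.56 on the deposited scale. ADH2 is similar in sequence to other alcohol dehydrogenase genes, and its spots may have read their transcripts. FBP1, a gluconeogenesis gene, had 0.25 (limma, adjusted p = 0.326), and 0.48 with a call under median centring, where its own spread did not enter.

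Of 8 genes that act in the turnover of membrane transporters 0 were called, and the median was -0.15. DOA4, the gene of a ubiquitin hydrolase, had -1.36, -0.31 and -0.44, a mean of -0.70 ± 0.21 (limma, adjusted p = 0.152), with array 1 again the most extreme, and -0.37 without it. It passed under 6 settings, among them normexp before loess (-0.90) and quantile normalization (-0.66). The 6 include median centring and the fit without array 3, where the spread of DOA4 itself did not enter. They also include the deposited scale, where 75.7% of all genes passed as lower. DOA4 was dim: its mean log2 signal of 8.97 lay below the 5th percentile of all genes, 9.04. RSP5, which encodes the ubiquitin ligase of transporter endocytosis, had -0.49, -0.22 and -0.28, a mean of -0.33 ± 0.12 (adjusted p = 0.224).

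**Figure D4:**
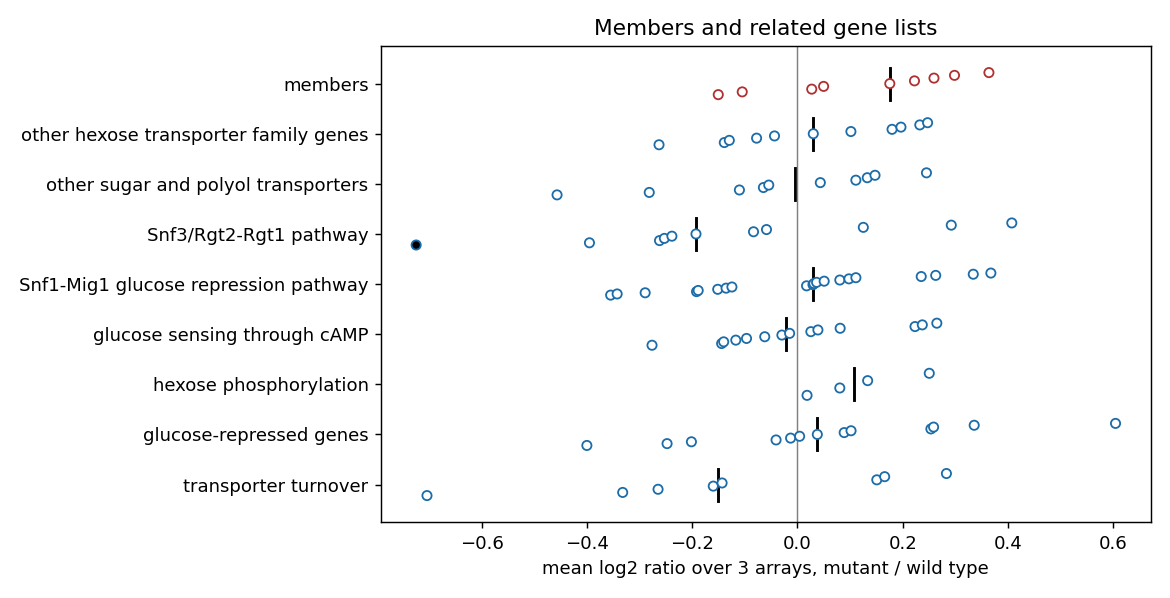
Mean log2 ratio over 3 arrays (horizontal axis) of the 9 members (red rings) and of the genes of 8 related lists (blue rings), with the median of each row as a black bar and genes that passed the test filled. CDC34, at -0.72 in the Snf3/Rgt2-Rgt1 row, is the only filled point, and the members span -0.15 to 0.36.

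By the Euclidean distance of the 3 array ratios, the genes nearest to HXT4, the member of smallest p, were HEM25 (distance 0.03), NNF2 (0.03) and DUT1 (0.04). HEM25 had 0.56, 0.08 and 0.25, which is the pattern of HXT4 itself. All 4 genes were highest on array 1, and with 3 arrays of 1 group such likeness is a description only.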

How the data were processed

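The authors deposited log2 ratios, 1 per spot, without stating a normalization; background handling, image software and print layout were not given in the sources used here. As powers of 2, 100% of the values were ratios of whole numbers (relative tolerance 1e-13), against at most 0.2% for bases e and 10. Array medians were -0.52, -0.85 and -0.55. Both channel signals were recovered from these whole numbers, with the common factor settled from the duplicate spot and the other arrays. The deposited ratio fell with brightness, to medians of -1.10, -1.18 and -1.32 in the brightest 10% of spots against 0.01, -0.64 and -0.30 in the dimmest 10%, so a loess curve on the signal (span 0.3) was subtracted within each array. Spots of a gene were averaged. limma 3.58.1 (R 4.3.3) tested the mean against 0, two-sided, and called genes at a Benjamini-Hochberg adjusted p under 0.05. The model and the recovery were tested on simulated data. There, 87.5%, 90.2% and 91.4% of signals on arrays 1, 2 and 3 were recovered to within 0.5 on the log2 scale. The simulated signals were drawn around the recovered ones, with the spread of duplicates that the recovery had estimated. These percentages therefore do not measure how accurate the recovered signals of the real spots are. The number of arrays limits the precision. Gene names came from the platform annotation; RefSeq's R64 table gave synonyms and neighbours only. Members and lists were chosen with earlier results of these data known. Named were all 9 members, YAP1, the called genes of each pathway or target list (at most 4, by smallest p) or else the 2 of smallest p, and the 3 genes nearest to the member of smallest p. STD1 was named in addition, as the highest of its list. Alternatives covered normalization, background, spots, filter, variance model, threshold and each array left out. No sequence is shown because none was in the tables used here. Figures were drawn in matplotlib 3.10.9 (Python 3.11.15; pandas 2.3.3; numpy 2.4.6).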

Additional observations from a re-analysis of the deposited data

How the results depend on the processing

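With each array left out in turn, 0 members passed, genes lower numbered 67 to 140 and genes higher 4 to 32, against 86 and 16. Members passed only on the deposited scale, where 6 were lower. Genes lower and higher numbered 984 and 237 with median centring, 4191 and 1 on the deposited scale, 197 and 64 with normexp before loess, 174 and 46 with arrays scaled to 1 spread, 235 and 97 with quantile normalization, 0 and 1 with the unmoderated statistic and 49 and 5 at an adjusted p under 0.01, and genes lower numbered 141 with print-block medians. The cause of these moves was not tested, apart from the stricter threshold, which lowers counts by construction. With median centring each gene checked had a SE of 0.167, and without array 3 a SE of 0.234. Calls in these settings therefore do not weigh a gene's own spread. Members changed sign under some settings without passing, except on the deposited scale. Under median centring HXT3 had -0.042, HXT6 -0.033, HXT7 -0.048 and SNF3 0.013. On the deposited scale HXT1 had -0.37, HXT2 -0.40, HXT3 -0.68, HXT4 -0.36, HXT6 -0.67, HXT7 -0.69 and RGT2 -0.44, and HXT8 had -0.22, HXT17 -0.23, TOS3 -0.23, RAS1 -0.26, HXK1 -0.52, EMI2 -0.83, ADH2 -0.56 and FBP1 -0.16. With each array left out in turn HXT3 ran from -0.053 (without array 1) to 0.36, HXT6 from -0.17 (without array 1) to 0.40 and RGT2 from -0.027 (without array 3) to 0.085. With print-block medians HXT7 had -0.077 and HXT17 -0.075, and EMI2 had -0.19 with median centring. No paired analysis was possible because there is 1 group and each array already pairs mutant with wild type. The dim spots of the sensor genes may understate a difference. With normexp before loess SNF3 had -0.23 (limma, adjusted p = 0.522) and RGT2 0.084 (adjusted p = 0.834). The size of any understatement was not tested, because the background of the spots is not known.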
